A study of Homo sapiens with 15 samples.

Results

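The genes described here are 10 genes of the integrated stress response and of its neighbour, the unfolded protein response, in A549 cells exposed to high oxygen with or without all-trans retinoic acid (ATRA). They were chosen by symbol, as ATF4, ATF3, PPP1R15A, DDIT3, TRIB3, CHAC1, ASNS, DDIT4, HSPA5 and XBP1, out of 43388 genes with a row in every count table. All 10 were found, and all 10 passed the filter on low counts. A549 is a human lung adenocarcinoma line of alveolar epithelial origin, and every library came from this 1 wild-type line. ATRA is the active form of vitamin A. By the labels' protocol, cells received ATRA at 1e-05 mM or its ethanol vehicle for 24 h and were then kept in hyperoxia (95% oxygen) or normoxia (21% oxygen) for 72 h, after which total RNA was sequenced. The groups were normoxia with vehicle (2 libraries), hyperoxia with vehicle (2), normoxia with ATRA (3), hyperoxia with ATRA (3), and normoxia (2) and hyperoxia (2) labelled with the oxygen exposure alone, called no vehicle here because their labels name neither agent. A further library carried labels that did not agree on its treatment and was kept out of every comparison.

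The integrated stress response begins when kinases that sense amino acid shortage, double-stranded RNA, heme shortage or unfolded protein in the endoplasmic reticulum phosphorylate the initiation factor eIF2, which slows protein synthesis as a whole while the messenger RNA of ATF4 is translated more. ATF4 then drives genes for amino acid supply, for stress signalling and for shutting the response off again. The sensors ATF6 and IRE1 (gene ERN1) form the other arms of the unfolded protein response and raise chaperones of the endoplasmic reticulum such as HSPA5. The readout here was RNA abundance, which does not show eIF2 phosphorylation or ATF4 protein.

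The 14 libraries with a group held between 2642377 and 5605072 counts on genes, so that 3 counts, taken as the floor of detection, were worth 0.535 to 1.14 CPM, the usual unit of counts scaled to sequencing depth. Levels are normalised read counts in CPM after scaling by trimmed mean of M values (TMM). Differences are log2 fold changes from edgeR's quasi-likelihood test, with adjusted p-values over all genes tested. The labels do not say whether replicates were separate cultures, so the p-values measure the spread between these libraries. The labels also give no replicate numbers. Those used here follow the order of the libraries within each group and pair no libraries across groups. Each library is a pool of cells, so fewer cells expressing a gene and less of its RNA per cell cannot be told apart. The epithelial markers KRT8, KRT18, KRT19, EPCAM and CDH1 had a summed level of 5743 to 9562 CPM in normoxia and 1685 to 4203 CPM in hyperoxia, and EPCAM was the lowest of them. Of the markers of other cell types, DCN, VWF, CD3E, ADIPOQ and LEP were at 0 in all 14 libraries, and the others were not. The fibroblast markers summed to 1.56 to 12.5 CPM in normoxia and 0 to 2.30 CPM in hyperoxia. The endothelial markers summed to 0 to 6.26 CPM and 0 to 0.353 CPM, and the adipocyte markers to 0 to 1.04 CPM and 0 to 1.53 CPM. The summed level of the 4 leukocyte markers was 17.4 to 32.8 CPM in normoxia and 60.4 to 103 CPM in hyperoxia, nearly all of it CD68, a lysosomal protein. The epithelial and leukocyte sums moved with the oxygen exposure, and the part of the marker genes in the results below was not tested. Hyperoxia no vehicle replicate 1 stood apart from its partner: the chi-square of their counts per degree of freedom was 32.3, against 4.20 to 19.2 in the other pairs of a group, and it held the fewest genes with a count, 12657. Hyperoxia ATRA replicate 1 lay at the edge of its group for several of the 10 genes. Results that rest on these libraries are given with and without them.

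Neither the strand setting nor the overlap setting of the counting was given in the sources used here. The DDIT3 gene overlaps MARS1, on the opposite strand, over 65 bases, and the MARS1 row held 951% as many counts as the DDIT3 row. The ASNS gene overlaps the readthrough transcript CZ1P-ASNS on the same strand, whose row held 103% as many counts as that of ASNS. DDIT3 also contains MIR616, with 0.442% as many counts, and none of the other 8 genes overlaps another gene of the RefSeq gene table. DDIT3 and ASNS are therefore uncertain in how reads were split between rows, and a doubt about the strand touches all 10 genes. TALAM1, which lies opposite the abundant nuclear RNA MALAT1, held 1.87 to 2.01 times the counts of MALAT1 in the 14 libraries. In 214 pairs of a gene and its named antisense gene that share at least 200 exon bases, the antisense row held a median of 1.79 times the counts that the sense row's mean per base would put on the shared bases, and 145 pairs were above 1. The library medians were 1.47 to 2.03, except 0.295 in hyperoxia no vehicle replicate 1, where 95 of the 214 antisense rows were at 0. The libraries were prepared stranded. A count made with the opposite strand setting cannot be told apart from antisense RNA here, so the level of every gene named, the 10 included, may hold reads of the other strand or only part of its own.

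The promoters of the 10 genes were read from RefSeq windows on GRCh38.p14, from 250 bases before to 50 bases after the start of transcription, and all 10 genes had a window. The search covered 3 motifs on both strands: the C/EBP-ATF response element, to which ATF4 and its partners bind, written TGATGNAAN; the endoplasmic reticulum stress response element, to which ATF6 binds together with NF-Y, searched as CCAAT and CCACG with 9 bases of any kind between them; and the cAMP response element, written TGACGTCA. Counted by gene, over all windows of each, the first was present in 4.45% of 27305 genes, the second in 0.0916% and the third in 2.25%. Among the 10 genes, ATF3, ASNS and CHAC1 had the first, HSPA5 and XBP1 the second, and PPP1R15A the third, each as 1 match that overlapped no other. ATF3, ASNS and XBP1 also had a window at another start, which held none of the 3 motifs. Counts per gene do not show which start was used. The windows of ATF4, DDIT3, TRIB3 and DDIT4 held none of these letters, which says nothing about the factors. The pair with the endoplasmic reticulum stress response element is shown first, because both genes fell in every hyperoxia comparison below. Each sequence is 120 bases on the gene's own strand, 5′ to 3′, and capitals mark the match, which lies at bases -66 to -48 from the start in HSPA5 (chr9:125241344-125241463, minus strand) and at bases -52 to -34 in XBP1 (chr22:28800570-28800689, minus strand).
HSPA5: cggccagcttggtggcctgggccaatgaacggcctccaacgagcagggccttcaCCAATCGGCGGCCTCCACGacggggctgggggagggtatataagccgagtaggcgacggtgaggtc
XBP1: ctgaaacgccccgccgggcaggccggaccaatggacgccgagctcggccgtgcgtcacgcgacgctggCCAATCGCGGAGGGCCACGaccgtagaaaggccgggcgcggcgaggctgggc

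The 3 genes with a C/EBP-ATF response element are shown because ATF3 rose, ASNS fell and CHAC1 did not pass the test in hyperoxia with vehicle. The match lies at bases -191 to -183 in ATF3 (chr1:212565157-212565276, plus strand), at bases -68 to -60 in ASNS (chr7:97872409-97872528, minus strand) and, on the reverse strand, at bases -210 to -202 in CHAC1 (chr15:40953221-40953340, plus strand). The cAMP response element of PPP1R15A, the gene with the largest change in hyperoxia with vehicle, lies at bases -58 to -51 (chr19:48872301-48872420, plus strand).
ATF3: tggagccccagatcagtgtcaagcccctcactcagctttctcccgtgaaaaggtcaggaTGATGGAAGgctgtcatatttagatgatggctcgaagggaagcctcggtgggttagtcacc
ASNS: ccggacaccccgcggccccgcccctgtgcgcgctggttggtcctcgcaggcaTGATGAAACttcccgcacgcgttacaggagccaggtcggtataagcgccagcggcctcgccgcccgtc
CHAC1: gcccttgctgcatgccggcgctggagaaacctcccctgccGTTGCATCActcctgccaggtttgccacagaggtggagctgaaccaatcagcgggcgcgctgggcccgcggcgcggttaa
PPP1R15A: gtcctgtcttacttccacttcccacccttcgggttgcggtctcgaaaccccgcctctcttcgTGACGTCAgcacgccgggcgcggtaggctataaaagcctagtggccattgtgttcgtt

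Levels were compared between the genes per kilobase of the canonical transcript, as the mean over the 7 libraries of each oxygen exposure. In normoxia ATF4 was highest at 184 ± 8.99 CPM per kb (SD, n = 7), then HSPA5 at 127 ± 10.5 and DDIT4 at 84.7 ± 12.5. ASNS (37.0 ± 6.98), TRIB3 (35.5 ± 15), XBP1 (29.0 ± 7.44) and DDIT3 (23.4 ± 9.44) followed, and each differed from its neighbour in this order by less than their SDs. PPP1R15A (12.5 ± 2.53), CHAC1 (5.37 ± 2.03) and ATF3 (1.37 ± 0.651) were lowest. In hyperoxia ATF4 was again highest at 331 ± 29.7 CPM per kb, and PPP1R15A, at 104 ± 37.8, now lay above HSPA5 at 63.4 ± 4.76. TRIB3 (35.0 ± 10.9), DDIT4 (34.2 ± 13.3) and DDIT3 (27.3 ± 7.26) lay within their SDs of each other, as did ASNS (18.3 ± 6.39), ATF3 (15.7 ± 4.0) and XBP1 (12.9 ± 3.04), with CHAC1 at 8.33 ± 4.27. These means pool libraries with ATRA, vehicle and neither, so their SDs include any effect of ATRA.

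The first comparison asked what hyperoxia did to the 10 genes in vehicle-treated cells. ATF4, ATF3 and PPP1R15A rose, and TRIB3, ASNS, DDIT4, HSPA5 and XBP1 fell, while DDIT3 and CHAC1 did not pass the test. These 8 of 10 genes compare with 17.5% of the 14957 genes tested that were called in this comparison. The 10 genes were chosen with earlier results of these data known, so such shares describe them and do not test them as a set. By direction, 3 of 10 were called higher, against 8.68% of all genes, and 5 of 10 lower, against 8.81%. The median log2 fold change of the 10 genes was -0.54, and that of all genes 0.01.

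Among the transcription factors of the response, ATF4 (chromosome 22, 39520559 to 39522686, plus strand) measured 270.4 and 269 CPM in the normoxia vehicle libraries and 513 and 506 CPM in the hyperoxia vehicle libraries. In the other libraries it lay at 246 to 282 CPM in normoxia and 407 to 497 CPM in hyperoxia, so the 7 hyperoxia libraries were all above the 7 normoxia libraries. With vehicle the rise was 0.92 on the log2 scale (SE 0.12, 95% confidence interval 0.66 to 1.17, adjusted p = 1.43e-05), or 1.89-fold. ATF3 (chromosome 1, 212565407 to 212620777, plus strand), a stress-induced factor that ATF4 and p53 can both raise, was close to the floor in normoxia. It measured 2.78 and 3.19 CPM with vehicle, 2.34 and 4.56 CPM with no vehicle, and 2.61, 0.312 and 2.86 CPM with ATRA. In hyperoxia it measured 35.3 and 34.6 CPM with vehicle, 26.8 and 43.0 CPM with no vehicle, and 20.6, 23.3 and 29.0 CPM with ATRA. The lowest hyperoxia library thus lay well above the highest normoxia library. With vehicle the rise was 3.52 (SE 0.46, adjusted p = 9.13e-06), or 11.4-fold. DDIT3 (chromosome 12, 57516588 to 57520517, minus strand) encodes CHOP, the factor that links prolonged stress to cell death. It measured 20.2 and 17.9 CPM in normoxia and 31.8 and 30.0 CPM in hyperoxia with vehicle. Its log2 fold change was 0.70 (interval 0.06 to 1.35, adjusted p = 0.135), and fitted on the 4 vehicle libraries alone it passed, at 0.70 with an adjusted p of 0.0155. Over all 14 libraries the exposures overlapped, at 12 to 39.0 CPM in normoxia and 15.4 to 31.8 CPM in hyperoxia, and the highest level of all was in a normoxia library with no vehicle.

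**Figure D1:**
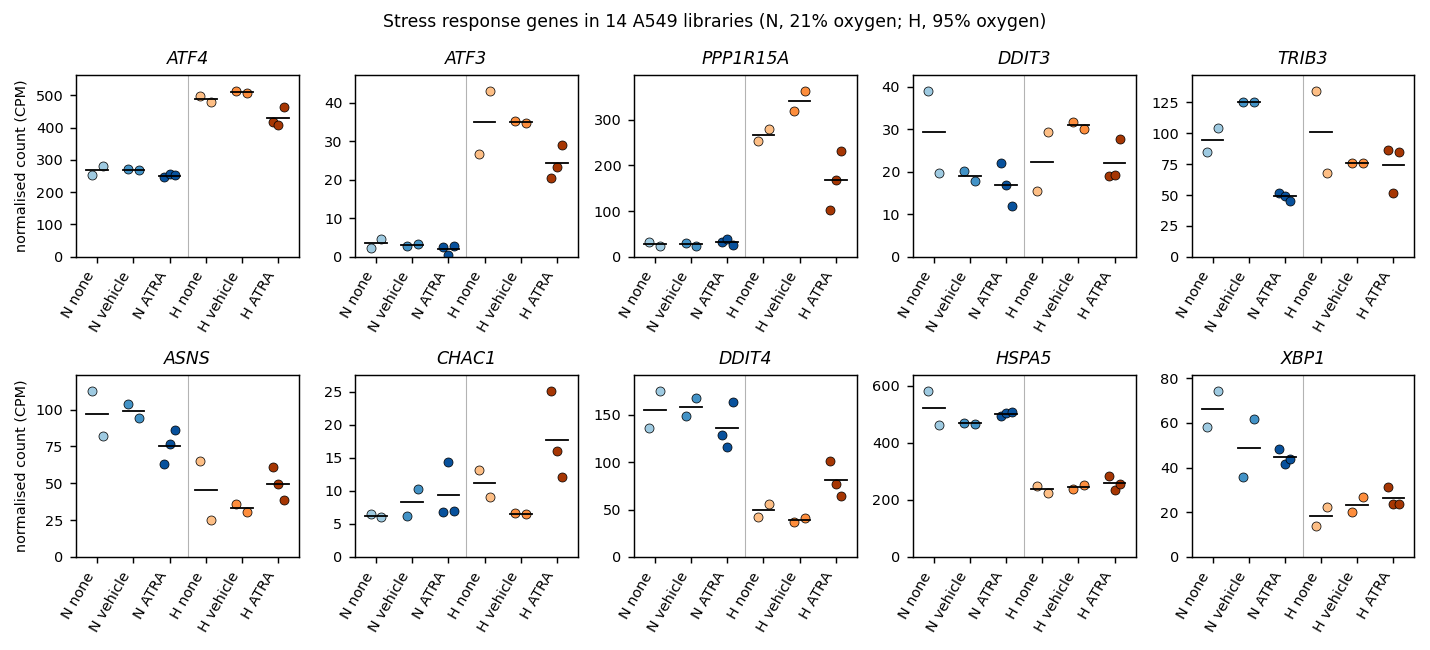
Normalised read counts (CPM, linear axis from 0) of the 10 genes in 14 A549 libraries, by oxygen exposure (N, 21%; H, 95%) and treatment (none, vehicle, ATRA). Each point is a library and each bar the group mean of 2 or 3 libraries; ATF4, ATF3 and PPP1R15A are higher, and DDIT4, HSPA5 and XBP1 lower, in all 7 hyperoxia libraries than in all 7 normoxia libraries.

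PPP1R15A encodes GADD34, the stress-induced subunit that directs a phosphatase to eIF2 and so ends the response (chromosome 19, 48872421 to 48876058, plus strand). It measured 29.2 and 24.3 CPM in normoxia with vehicle and 319.9 and 363 CPM in hyperoxia with vehicle. This was the largest change among the 10 genes in that comparison, 3.69 on the log2 scale (SE 0.28, adjusted p = 8.28e-09), or 12.9-fold, and it ranked 25 by p-value among the 14957 genes. TRIB3 (chromosome 20, 380760 to 397559, plus strand) encodes a pseudokinase that binds ATF4 and restrains it. It measured 125 CPM in both normoxia libraries and 76.3 and 76.1 CPM in both hyperoxia libraries with vehicle, a fall of 0.71 on the log2 scale (SE 0.20, adjusted p = 0.0131). The fall did not pass the test without 1 of these 4 libraries, whichever it was, at -0.74 with an adjusted p of 0.0786 without hyperoxia vehicle replicate 1, 0.0866 without replicate 2, 0.0619 without normoxia vehicle replicate 1 and 0.0704 without replicate 2.

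The other 3 targets of ATF4 were lower in hyperoxia or did not pass the test. ASNS, asparagine synthetase (chromosome 7, 97851677 to 97928441, minus strand), is a standard reporter of amino acid shortage. It measured 104 and 94.2 CPM in normoxia and 35.8 and 30.4 CPM in hyperoxia with vehicle, a fall of 1.59 (SE 0.22, adjusted p = 1.77e-05), or 3.0-fold. CHAC1 (chromosome 15, 40953471 to 40956512, plus strand) encodes an enzyme that breaks down glutathione and is a sensitive target of ATF4. It measured 6.26 and 10.3 CPM in normoxia and 6.63 and 6.53 CPM in hyperoxia with vehicle, with a log2 fold change of -0.36 (interval -1.36 to 0.64, adjusted p = 0.689). That interval includes a 2-fold fall, so a fall of that size is not excluded. DDIT4 encodes REDD1, an inhibitor of the growth kinase mTORC1 (chromosome 10, 72273924 to 72276036, plus strand). It measured 149 and 167 CPM in normoxia and 37.1 and 41.1 CPM in hyperoxia with vehicle, a fall of 2.01 (SE 0.21, adjusted p = 4.25e-07), or 4.03-fold.

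HSPA5 and XBP1 report the endoplasmic reticulum. HSPA5 encodes BiP, its main chaperone (chromosome 9, 125234853 to 125241343, minus strand). It measured 471 and 466 CPM in normoxia and 238 and 251 CPM in hyperoxia with vehicle, a fall of 0.94 (SE 0.13, adjusted p = 1.53e-05), or 1.92-fold. XBP1, whose RNA is spliced by IRE1 to make the active factor, lies on chromosome 22 (28794560 to 28800569, minus strand). Its row does not separate the spliced from the unspliced form. It measured 35.8 and 61.7 CPM in normoxia and 20.1 and 26.8 CPM in hyperoxia with vehicle, a fall of 1.06 (SE 0.27, adjusted p = 0.00711). This call was lost without hyperoxia vehicle replicate 1 (-0.90, adjusted p = 0.108) and without normoxia vehicle replicate 2 (-0.62, adjusted p = 0.284).

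The oxygen comparison was repeated in cells that had received ATRA, 3 libraries against 3 that share no library with the vehicle pair. Of the 10 genes, 8 were called, 4 higher and 4 lower, where 22.7% of all genes were called (11.4% higher, 11.3% lower). ATF3 rose by 3.59 (SE 0.40), ATF4 by 0.78 (SE 0.10) and PPP1R15A by 2.36 (SE 0.22), with adjusted p-values of 1.16e-06, 7.92e-06 and 1.11e-07. PPP1R15A measured 32.9, 39.6 and 25.5 CPM in normoxia with ATRA and 102, 168 and 232 CPM in hyperoxia with ATRA, a wide spread that did not reach the normoxia range. HSPA5 fell by 0.95 (SE 0.10, adjusted p = 7.53e-07), from 493, 503 and 509.8 CPM to 284, 236 and 257 CPM. DDIT4 fell by 0.75 (SE 0.16, adjusted p = 0.00179), from 129, 116 and 163 CPM to 101, 76.9 and 63.7 CPM. ASNS fell by 0.59 (SE 0.17, adjusted p = 0.0178) and XBP1 by 0.75 (SE 0.22, adjusted p = 0.016). TRIB3 went the other way from the vehicle-treated cells and rose by 0.62 (SE 0.17, adjusted p = 0.00986). It measured 51.9, 49.0 and 45.5 CPM in normoxia and 86.4, 51.7 and 84.5 CPM in hyperoxia, so that 1 hyperoxia library lay inside the normoxia range.

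Several of these calls hung on 1 library. TRIB3 was lost without hyperoxia ATRA replicate 3 (0.51, adjusted p = 0.0552) and without normoxia ATRA replicate 3 (0.55, adjusted p = 0.0506). ASNS was lost without the same libraries, at -0.44 (adjusted p = 0.0868) and -0.51 (adjusted p = 0.0774). XBP1 was lost without hyperoxia ATRA replicate 3 (-0.69, adjusted p = 0.057) and without normoxia ATRA replicate 1 (-0.70, adjusted p = 0.064). CHAC1 measured 6.78, 14.4 and 7.03 CPM in normoxia and 25.1, 16.1 and 12 CPM in hyperoxia with ATRA, which overlap, and its log2 fold change of 0.94 did not pass (adjusted p = 0.0826). CHAC1 passed without normoxia ATRA replicate 2 (1.37, adjusted p = 0.0234) and without hyperoxia ATRA replicate 3 (1.15, adjusted p = 0.0498). DDIT3 had a log2 fold change of 0.37 (interval -0.17 to 0.92, adjusted p = 0.337). Without hyperoxia ATRA replicate 1, the library at the edge of its group, 8 of the 10 genes were called as before. That fit called 3359 genes in all, and PPP1R15A lay at 2.63 and DDIT4 at -0.96.

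In the libraries with no vehicle, 2 against 2 and separate from all those above, 7 of the 10 genes were called, 3 higher and 4 lower, where 15.2% of 15339 genes were called (7.57% higher, 7.58% lower). ATF3 rose by 3.34 (SE 0.57), ATF4 by 0.87 (SE 0.12) and PPP1R15A by 3.28 (SE 0.31), with adjusted p-values of 0.000888, 0.000117 and 5.35e-06. PPP1R15A measured 32.2 and 22.5 CPM in normoxia and 253 and 280.5 CPM in hyperoxia. HSPA5 fell by 1.13 (SE 0.13), DDIT4 by 1.67 (SE 0.23) and XBP1 by 1.87 (SE 0.32), with adjusted p-values of 4.03e-05, 0.00018 and 0.000921. ASNS fell by 1.08 (SE 0.33, adjusted p = 0.0344), from 112 and 82.3 CPM to 64.9 and 25.4 CPM. ASNS was at -1.94 without hyperoxia no vehicle replicate 1 and lost its call without normoxia no vehicle replicate 1 (-0.89, adjusted p = 0.225). TRIB3 measured 84.8 and 104 CPM in normoxia and 134 and 67.8 CPM in hyperoxia, 1 library above and 1 below the normoxia pair. Its log2 fold change of 0.11 (adjusted p = 0.816) became -0.48 (adjusted p = 0.272) without hyperoxia no vehicle replicate 1. DDIT3 (-0.41, adjusted p = 0.53) and CHAC1 (0.85, adjusted p = 0.32) did not pass. Without hyperoxia no vehicle replicate 1, ATF3 lay at 3.65, ATF4 at 0.84 and PPP1R15A at 3.34. HSPA5 lay at -1.21, DDIT4 at -1.47 and XBP1 at -1.56 in that fit. That fit leaves 1 library of hyperoxia with no vehicle, so its calls are not counted here. Fitted on these 4 libraries alone, 58 genes were called in all and 1 of the 10, PPP1R15A (adjusted p = 0.0428), with the same directions.

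Across the 3 oxygen comparisons, ATF4, ATF3 and PPP1R15A were called higher in each, where 4.05% of 14957 genes were. ASNS, DDIT4, HSPA5 and XBP1 were called lower in each, where 4.47% were. The vehicle and ATRA comparisons were fitted on 10 libraries, and that with no vehicle on 14. Fitted on all 14 libraries, ASNS and XBP1 were not called for hyperoxia with ATRA. By the libraries themselves, 6 of the 10 genes did not overlap between the 7 hyperoxia and the 7 normoxia libraries, against 13.7% of 15339 genes tested. ATF4, ATF3 and PPP1R15A lay wholly above, against 6.34% of all genes, and DDIT4, HSPA5 and XBP1 wholly below, against 7.31%. ASNS missed this by 1 library, since hyperoxia no vehicle replicate 1 at 64.9 CPM lay above normoxia ATRA replicate 1 at 63.1 CPM. The ratio of the mean level over 7 libraries, hyperoxia over normoxia, was 11.4 for ATF3, 8.33 for PPP1R15A and 1.80 for ATF4. It was 0.495 for ASNS, 0.404 for DDIT4, 0.499 for HSPA5 and 0.446 for XBP1, and 1.17, 0.985 and 1.55 for DDIT3, TRIB3 and CHAC1.

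**Figure D2:**
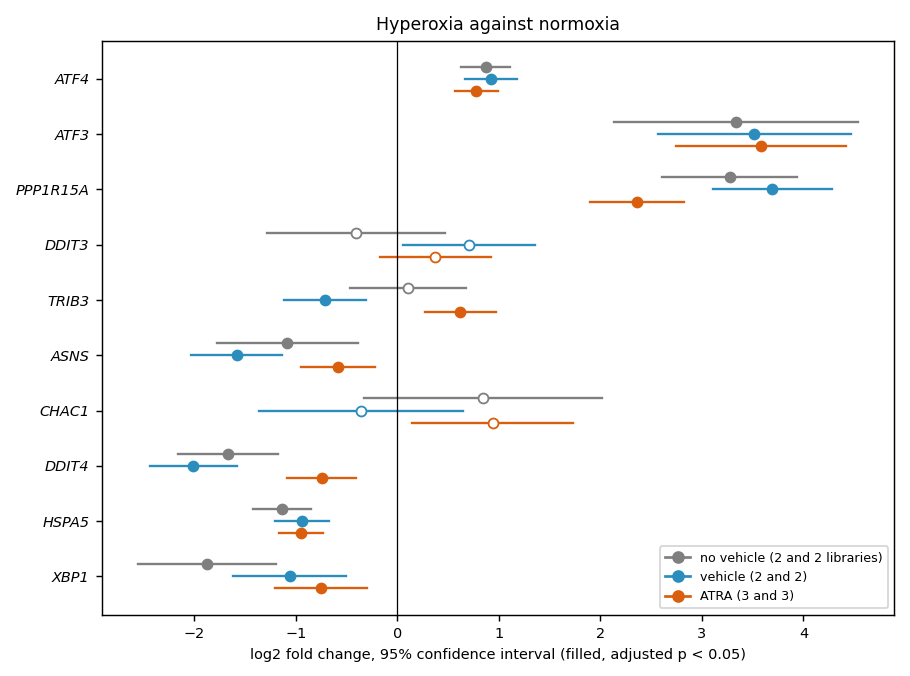
Log2 fold change of hyperoxia against normoxia for the 10 genes, with 95% confidence intervals from edgeR, in libraries with no vehicle (2 and 2), vehicle (2 and 2) and ATRA (3 and 3); filled points have an adjusted p under 0.05. PPP1R15A and ATF3 lie between 2.36 and 3.69 in each, HSPA5 lies between -1.13 and -0.94, and TRIB3 lies at -0.71 with vehicle and 0.62 with ATRA.

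The next comparison asked what ATRA did in normoxia, 3 libraries against the 2 with vehicle. TRIB3 was lower with ATRA, at 51.9, 49.0 and 45.5 CPM against 125 CPM in both vehicle libraries. It fell by 1.36 (SE 0.18, interval -1.73 to -0.98, adjusted p = 0.000157), or 2.56-fold, ranking 21 by p-value among 14957 genes. The 2 normoxia libraries with no vehicle, at 84.8 and 104 CPM, also lay above all 3 ATRA libraries. The fall of TRIB3 held in each of the 16 alternatives, between -1.4 and -1.16, with adjusted p-values up to 0.0219. It was the 1 gene of 10 that was called, where 1.25% of all genes were. ASNS measured 63.1, 76.8 and 85.9 CPM with ATRA against 104 and 94.2 CPM with vehicle, all 3 below both, with a log2 fold change of -0.39 (adjusted p = 0.566). ATF4 lay at 246, 255 and 252 CPM with ATRA against 270.4 and 269 CPM, a log2 fold change of -0.10 (interval -0.34 to 0.13). The remaining genes had log2 fold changes between -0.59 for ATF3 and 0.30 for PPP1R15A, with adjusted p-values from 0.848 to 0.98. This comparison and the first share the 2 normoxia vehicle libraries.

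In hyperoxia, ATRA against vehicle moved 2 of the 10 genes past the test, where 2.21% of all genes were called (1.52% higher, 0.695% lower). PPP1R15A measured 102, 168 and 232 CPM with ATRA and 319.9 and 363 CPM with vehicle, so that each ATRA library lay below each vehicle library. It fell by 1.03 (SE 0.22, interval -1.48 to -0.59, adjusted p = 0.00997), or 2.05-fold. The 2 hyperoxia libraries with no vehicle, at 253 and 280.5 CPM, lay between. Without hyperoxia ATRA replicate 1, the lowest of the 3, the fall was 0.77 and still passed (adjusted p = 0.015), and it did not pass without hyperoxia vehicle replicate 1 (-1.13, adjusted p = 0.0538) or replicate 2 (-0.94, adjusted p = 0.148). DDIT4 measured 101, 76.9 and 63.7 CPM with ATRA and 37.1 and 41.1 CPM with vehicle, and 41.9 and 56.0 CPM with no vehicle. It rose by 1.05 (SE 0.19, interval 0.64 to 1.45, adjusted p = 0.00338), or 2.06-fold, which kept it below the normoxia range of 116 to 174 CPM. The rise was 0.83 without hyperoxia ATRA replicate 1 (adjusted p = 0.0151), and it did not pass without hyperoxia vehicle replicate 1 (0.97, adjusted p = 0.11) or replicate 2 (1.12, adjusted p = 0.0503). DESeq2 kept DDIT4 (adjusted p = 3.99e-05) and not PPP1R15A (adjusted p = 0.0838). The fit of 14 libraries, and that with vehicle and no vehicle pooled, also kept DDIT4 and not PPP1R15A.

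CHAC1 and ASNS were higher in each hyperoxia ATRA library than in either hyperoxia vehicle library without passing the test. CHAC1 measured 25.1, 16.1 and 12 CPM against 6.63 and 6.53 CPM, a log2 fold change of 1.44 (interval 0.52 to 2.35, adjusted p = 0.107). ASNS measured 61.3, 49.4 and 38.7 CPM against 35.8 and 30.4 CPM, a log2 fold change of 0.60 (interval 0.18 to 1.03, adjusted p = 0.154), which passed without hyperoxia ATRA replicate 3 (0.76, adjusted p = 0.047). ATF4 measured 418, 407 and 464 CPM against 513 and 506 CPM, a log2 fold change of -0.24 (interval -0.47 to -0.02, adjusted p = 0.326). ATF3 (-0.52, adjusted p = 0.544) and DDIT3 (-0.49, adjusted p = 0.468) were not distinguishable from vehicle at this depth. TRIB3 had a log2 fold change of -0.02 (interval -0.40 to 0.35), HSPA5 of 0.09 (interval -0.16 to 0.33) and XBP1 of 0.16 (interval -0.36 to 0.68). This comparison shares the 2 hyperoxia vehicle libraries with the first one.

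**Figure D3:**
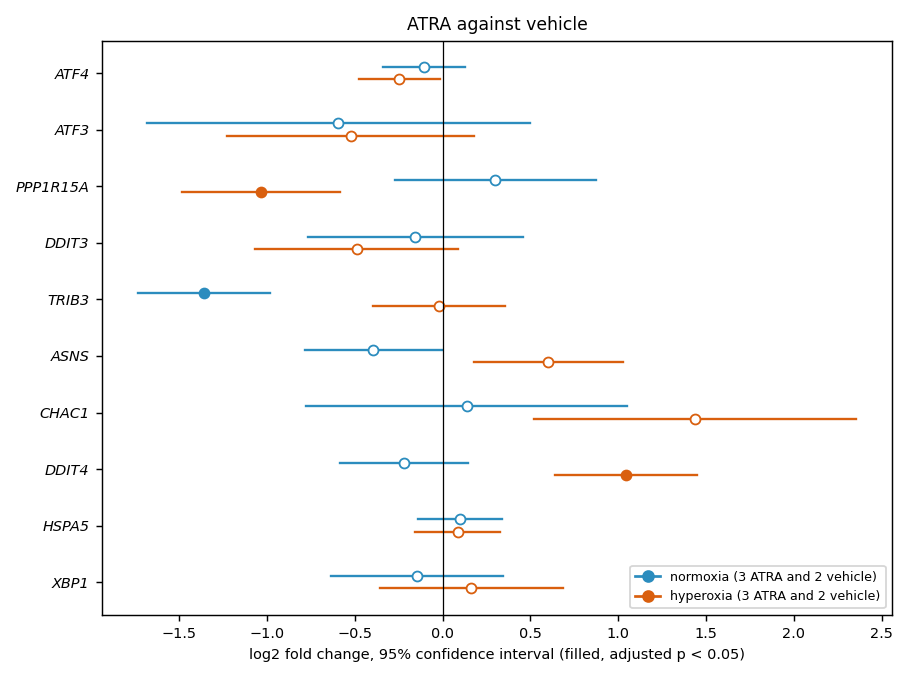
Log2 fold change of ATRA against vehicle for the 10 genes in normoxia and in hyperoxia (3 ATRA and 2 vehicle libraries each), with 95% confidence intervals from edgeR; filled points have an adjusted p under 0.05. TRIB3 lies at -1.36 in normoxia and -0.02 in hyperoxia, and PPP1R15A and DDIT4 lie at -1.03 and 1.05 in hyperoxia.

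Whether the effect of ATRA differed between the exposures was tested as an interaction, which equals the oxygen effect with ATRA minus that with vehicle. TRIB3 was the 1 gene of 10 that passed, where 0.14% of all genes did (0.1% higher, 0.0401% lower). Its difference was 1.33 (SE 0.26, interval 0.80 to 1.87, adjusted p = 0.0364), ranking 16 by p-value. It lay between 0.90 and 1.5 over 15 alternatives and did not pass in 10 of them. Leaving out 1 library at a time gave 1.21 to 1.5. TRIB3 did not pass in the fit of 14 libraries or with vehicle and no vehicle pooled, which both use the libraries with no vehicle. Among those 10 were the fits without either hyperoxia vehicle library (adjusted p = 0.23 and 0.29), without either normoxia vehicle library (0.154 and 0.221), without each normoxia ATRA library in turn (0.0774, 0.0783 and 0.0667) and without hyperoxia ATRA replicate 3 (0.074). DDIT4 had a difference of 1.26 (SE 0.26, adjusted p = 0.0512), which passed by DESeq2 (adjusted p = 0.000929), with no filter (adjusted p = 9.16e-05), and without hyperoxia ATRA replicate 3 (1.41, adjusted p = 0.0207) or normoxia ATRA replicate 3 (1.4, adjusted p = 0.0275). PPP1R15A had a difference of -1.33 (SE 0.35, adjusted p = 0.223) and passed with no filter (adjusted p = 2.83e-05) and without hyperoxia ATRA replicate 3 (-1.66, adjusted p = 0.031). ASNS had a difference of 1.00 (SE 0.28, adjusted p = 0.275). For HSPA5, ATF4 and ATF3 the differences were -0.01 (interval -0.35 to 0.32), -0.14 (interval -0.47 to 0.19) and 0.07 (interval -1.13 to 1.27).

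Vehicle was set against no vehicle as a control comparison. None of the 10 genes was called by edgeR in hyperoxia, where 0.00652% of 15339 genes were (1 gene), in normoxia, where 0% were, or in the difference between the exposures, where 0.00652% were. DESeq2 called none of the 10 either, and gave no adjusted p for ATF3, DDIT3 and CHAC1 in hyperoxia. At an unadjusted p under 0.05 the counts were 0, 0 and 1 of the 10, where 8.91%, 0.867% and 4.85% of all genes passed, and the 1 was TRIB3 (-0.82, adjusted p = 0.869). The intervals were wide for the scarcer genes, as for DDIT3 in hyperoxia (-0.39 to 1.35) and CHAC1 in hyperoxia (-1.94 to 0.40), and narrow for ATF4 (-0.18 to 0.30). Without hyperoxia no vehicle replicate 2, the log2 fold change in hyperoxia was -0.79 for TRIB3 and -0.95 for ASNS. In the same fit the difference between exposures was 1.67 for DDIT3 and 1.20 for XBP1. This setting leaves the library that stood apart as the sole one of its group, and the spread is then taken from the other groups. Its p-values are therefore not given here.

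The wider pathway was followed in 6 lists of genes, described by their counts and medians, with the share of all genes called beside each count. The lists too were chosen with earlier results of these data known. The first held the sensor kinases, the subunits of eIF2 and its exchange factor eIF2B, and the constitutive phosphatase subunit. It also held EIF2A, DNAJC3 and IMPACT. Of these 16 genes, hyperoxia with vehicle raised 1 and lowered 1, where 8.68% of all genes rose and 8.81% fell. The list's median log2 fold change was 0.07, where that of every tested gene was 0.01. PPP1R15B, the constitutive counterpart of GADD34, rose by 0.60 (SE 0.18), from 74.4 ± 2.44 to 113 ± 13.1 CPM (SD, n = 2 and 2), and EIF2S2, the beta subunit of eIF2, fell by 0.54 (SE 0.16), from 136 ± 13.4 to 93.5 ± 9.87 CPM. Without normoxia vehicle replicate 1, or without hyperoxia vehicle replicate 2, 0 of the 16 were called, and 1 fell when each of the other 2 vehicle libraries was left out in turn. With ATRA 0 rose and 2 fell on hyperoxia (11.4% and 11.3% of all genes), and with no vehicle 1 rose and 3 fell (7.57% and 7.58%).

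Partners of ATF4 and stress targets counted 20 genes, of which 18 were tested, since FGF21 and RHEBL1 had too few counts. Hyperoxia with vehicle raised 6 and lowered 1 (8.68% and 8.81% of all genes), with a median of 0.33. TNFRSF10B, the death receptor DR5, rose by 1.74 (SE 0.13), from 171 ± 18.5 to 571.5 ± 21.7 CPM. ATF5, a factor related to ATF4, rose by 1.94 (SE 0.20), from 57.8 ± 7.04 to 224 ± 4.96 CPM. GDF15, a secreted stress hormone, rose by 1.74 (SE 0.18) and SESN2, an inhibitor of mTORC1, by 1.64 (SE 0.27). TNFRSF10B, GDF15 and SESN2 are also known targets of p53. EIF4EBP1, a translation repressor and target of ATF4, fell by 1.44 (SE 0.20), from 72.8 ± 12.1 to 26.7 ± 0.0807 CPM. With ATRA the list had 8 higher and 1 lower on hyperoxia (11.4% and 11.3% of all genes), and with no vehicle 6 higher and 2 lower of 19 tested (7.57% and 7.58%). ATRA in hyperoxia raised 2 of the 18 (1.52% of all genes), EIF4EBP1 by 0.88 (SE 0.19, adjusted p = 0.0138) and VEGFA, the angiogenic growth factor, by 1.06 (SE 0.26, adjusted p = 0.0309). EIF4EBP1 measured 49.0 ± 7.75 CPM with ATRA (SD, n = 3), 26.7 ± 0.0807 CPM with vehicle (n = 2) and 37.0 ± 8.88 CPM with no vehicle (n = 2). VEGFA measured 51.5 ± 17.2, 24.6 ± 8.60 and 46.2 ± 21.1 CPM, so its level with no vehicle lay nearer to ATRA than to vehicle.

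Most of the amino acid genes fell, as ASNS did. Of 19 genes for amino acid synthesis and transport, hyperoxia with vehicle lowered 11 and raised 1 (8.81% and 8.68% of all genes), with a median of -0.69. PHGDH and PSAT1, enzymes at the start of serine synthesis, fell by 2.75 (SE 0.27) and 1.53 (SE 0.15), PHGDH from 76.8 ± 16.3 to 11.3 ± 0.0702 CPM and PSAT1 from 200.1 ± 16.4 to 69.0 ± 6.51 CPM. PYCR1, an enzyme of proline synthesis, fell by 1.32 (SE 0.20). The 1 that rose was SLC7A11, the cystine importer, by 0.63 (SE 0.14), from 420.3 ± 22.2 to 652 ± 19.2 CPM. With ATRA 1 rose and 7 fell (11.4% and 11.3% of all genes), and with no vehicle 0 rose and 5 fell (7.57% and 7.58%). In hyperoxia ATRA raised 6 of the 19 and lowered none (1.52% and 0.695% of all genes), with a median of 0.28. Among them PCK2, a mitochondrial enzyme, rose by 1.70 (SE 0.30, adjusted p = 0.0019), from 10.2 ± 4.25 to 32.8 ± 9.60 CPM, and PHGDH by 1.23 (SE 0.26, adjusted p = 0.0111). SLC7A5, the large neutral amino acid transporter, rose by 0.61 (SE 0.11, adjusted p = 0.00267), from 1773 ± 64.2 to 2696 ± 80.3 CPM, and PSAT1 by 0.62 (SE 0.14, adjusted p = 0.0159). PSAT1 was the 1 gene of this list whose interaction passed, with a difference of 1.13 (SE 0.19, adjusted p = 0.0111). The hyperoxia libraries with no vehicle did not lie with the vehicle libraries for each of these genes. PHGDH measured 23.5 ± 0.802 CPM with no vehicle, against 26.0 ± 8.06 CPM with ATRA and 11.3 ± 0.0702 CPM with vehicle, and vehicle against no vehicle was -1.05 (SE 0.29, adjusted p = 0.554). PSAT1 measured 138 ± 83.6 CPM with no vehicle, against 106 ± 4.12 CPM with ATRA and 69.0 ± 6.51 CPM with vehicle. Its fall on hyperoxia with no vehicle was not called (-0.45, adjusted p = 0.28), and the interaction of vehicle against no vehicle was -1.08 (SE 0.39, adjusted p = 0.869), close in size to that of ATRA and opposite in sign. SLC7A5 measured 2070 ± 91.1 CPM and PCK2 8.35 ± 9.84 CPM with no vehicle, both nearer to vehicle than to ATRA.

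Cytosolic tRNA synthetases, several of them targets of ATF4, counted 13 genes. Hyperoxia with vehicle lowered 9 and raised 0 (8.81% and 8.68% of all genes), with a median of -0.64. AARS1 fell by 1.24 (SE 0.14), from 342 ± 22.4 to 144 ± 6.33 CPM, MARS1 by 1.07 (SE 0.15) and YARS1 by 0.73 (SE 0.14). MARS1 is the gene that overlaps DDIT3. With ATRA 8 fell and 1 rose (11.3% and 11.4% of all genes), and with no vehicle 7 fell and 0 rose (7.58% and 7.57%). ATRA in hyperoxia called 0 of the 13 by edgeR, where 2.21% of all genes were called, and 0 by DESeq2. At an unadjusted p under 0.05 there were 2, and the share of all genes at that threshold is not given here.

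The ATF6 and XBP1 arm, 25 genes of which 24 were tested because DERL3 had too few counts, held more genes that fell than rose. Hyperoxia with vehicle lowered 9 and raised 2 (8.81% and 8.68% of all genes), with a median of -0.49. PDIA4, which forms disulfide bonds, fell by 1.59 (SE 0.15), from 219 ± 11 to 72.8 ± 13.7 CPM. HSP90B1, the chaperone GRP94, fell by 1.23 (SE 0.15), from 542 ± 23.5 to 231 ± 3.09 CPM, and MBTPS1, the protease that activates ATF6, by 1.51 (SE 0.16). The 2 that rose, a share near that of all genes, were the sensors ERN1, by 1.01 (SE 0.23), from 28.9 ± 2.31 to 58.1 ± 7.20 CPM, and ATF6, by 0.60 (SE 0.19). Without hyperoxia vehicle replicate 2 the counts were 7 lower and 0 higher. With ATRA 14 fell and 1 rose (11.3% and 11.4% of all genes), and with no vehicle 9 fell and 1 rose (7.58% and 7.57%). ATRA in hyperoxia raised 2 of the 24 (1.52% of all genes), MBTPS1 by 0.84 (SE 0.15, adjusted p = 0.00212) and CALR, the chaperone calreticulin, by 0.50 (SE 0.12, adjusted p = 0.0337). CALR had fallen by 0.97 (SE 0.14) on hyperoxia with vehicle. MBTPS1 measured 96.3 ± 11.7 CPM with ATRA, 53.7 ± 4.40 CPM with vehicle and 81.0 ± 15.4 CPM with no vehicle, the last nearer to ATRA, and vehicle against no vehicle was -0.59 (SE 0.17, adjusted p = 0.554). CALR measured 206 ± 73.2 CPM with no vehicle and 223 ± 3.59 CPM with vehicle.

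The 8 genes of the mitochondrial stress relay and of the mitochondrial chaperones and proteases had 3 lower and 0 higher on hyperoxia with vehicle (8.81% and 8.68% of all genes), with a median of -0.43. The protease LONP1 fell by 0.72 (SE 0.17), and the chaperones HSPD1 and HSPE1 by 0.56 (SE 0.14) and 0.52 (SE 0.14). Without normoxia vehicle replicate 1, or without hyperoxia vehicle replicate 2, 1 of the 8 was called lower. With ATRA and with no vehicle 2 fell in each (11.3% and 7.58% of all genes). In normoxia ATRA called 0 genes of the 6 lists by edgeR, where 1.25% of all genes were called. At an unadjusted p under 0.05 there were 1 of the sensors and eIF2 genes, 3 of the partners of ATF4, 5 of the amino acid genes, 3 of the synthetases, 4 of the ATF6 and XBP1 arm and 0 of the mitochondrial genes, and DESeq2 called 0, 1, 1, 0, 1 and 0. In hyperoxia ATRA called none of the sensors and eIF2 genes or of the mitochondrial genes by either tool, where edgeR called 2.21% of all genes. Of each list 3 were at an unadjusted p under 0.05. Shares of all genes at the unadjusted threshold, or by DESeq2, are not given beside these counts, so none is read as an excess.

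**Figure D4:**
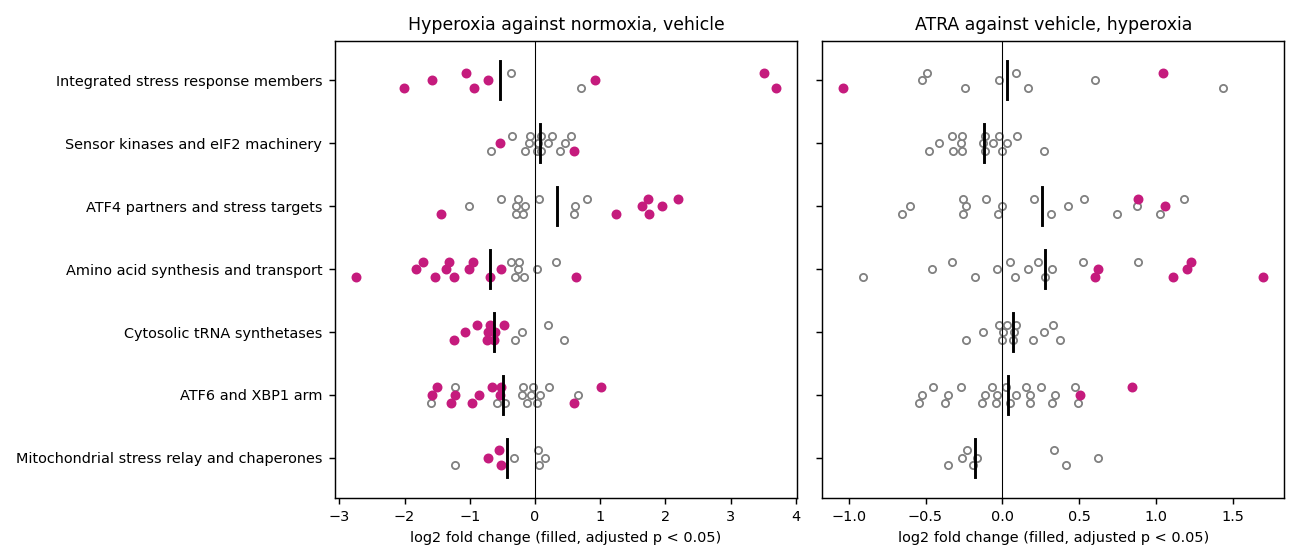
Log2 fold change of each tested gene in the 10 genes and in the 6 pathway lists, for hyperoxia against normoxia with vehicle (left) and ATRA against vehicle in hyperoxia (right). Each point is a gene (filled, adjusted p under 0.05) and each bar the list's median, which on the left is 0.33 for partners of ATF4, -0.69 for amino acid genes, -0.64 for tRNA synthetases and -0.49 for the ATF6 and XBP1 arm.

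The genes whose levels ran closest to each member were found by the root mean square (RMS) difference of centred log2 CPM over the 14 libraries, among 10419 genes with a mean of at least 10 CPM. The libraries share their exposure, so closeness is a description. ATF3 lay closest to PRCD (RMS difference 0.33) and to CDKN1A (0.53), the p53 target that encodes the cell cycle inhibitor p21. ATF4 lay closest to RPTOR (0.09), the scaffold of mTORC1, and MED13 (0.10). PPP1R15A lay closest to BIRC3 (0.28), an inhibitor of apoptosis raised by NF-κB, and PLA2G4C (0.34). HSPA5 lay closest to HNRNPM (0.09), an RNA-binding protein, and RPS15A (0.13), a ribosomal protein. DDIT4 lay closest to JUP (0.19), the junction protein plakoglobin, and FLRT3 (0.21), and XBP1 to SMAD6 (0.21), an inhibitor of BMP signalling, and SHTN1 (0.25). ASNS lay closest to CZ1P-ASNS (0.12), the transcript it overlaps, and then to IGSF11 (0.25). DDIT3 had LATS1 (0.23) and UPF2 (0.25), and CHAC1 had ADGRA2 (0.33) and DPH3 (0.33). For DDIT3 and CHAC1 the difference was large beside the gene's own RMS deviation from its mean, which was 0.44 and 0.59.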

How the data were processed

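Counts per gene were deposited by the authors for 15 libraries, 14 of which the labels place in 6 groups. Per the study's methods and the submitters' processing notes, stranded libraries were trimmed with Trimmomatic 0.38, aligned to hg38 with HISAT2 and counted with HTSeq. The annotation release, strand and overlap settings are not given in the sources used here. Rows that name no gene held 75.2% to 78.4% of reads (48.6% to 55.3% no feature) and were left out.

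Counts were tested with edgeR 4.0.16 in R 4.3.3 (TMM, filterByExpr with minimum count 10 and total 15, quasi-likelihood test); p-values were adjusted by Benjamini-Hochberg across every tested gene, and calls made at an adjusted p under 0.05. Comparisons of vehicle and ATRA used 10 libraries in 4 groups, and those with no vehicle used 14 libraries in 6 groups. CPM come from the 14 libraries. The script was tested on simulated data. The strand of the counts was checked on GENCODE exons of antisense pairs with at least 1000 counts. The count total limits precision, and the floor of 3 counts covers counting error only. No 2 libraries of a group agreed within sampling noise.

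Alternatives were DESeq2 1.42.0, RLE size factors, no filter, other sets of libraries, and leaving out each library. The 10 genes and the lists were chosen with earlier results of these data known. Named genes were the 10; of each list up to 4 called higher and 3 called lower in hyperoxia with vehicle by smallest adjusted p, and up to 2 called for ATRA in hyperoxia; and the 2 closest genes to each of the 10. TALAM1 and MALAT1 were named after their values were seen. Gene positions are from RefSeq on GRCh38.p14, the build of hg38, and transcript lengths from GENCODE. The genes closest to TRIB3 are not reported here.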

Additional observations from a re-analysis of the deposited data

Results flagged for a closer look

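TRIB3 was singled out because the effect of ATRA differed between the exposures by the interaction test, with a difference of 1.33 on the log2 scale (adjusted p = 0.0364): its log2 fold change was -1.36 in normoxia and -0.02 in hyperoxia. The call did not hold in 10 of 15 alternatives.

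The library that the labels put in no group carries hyperoxia in its title and a treatment label that names neither oxygen nor ATRA. It was singled out because it held ATF3 at 37.7 CPM, ATF4 at 519 CPM and PPP1R15A at 297 CPM, above the highest of the 7 normoxia libraries, which measured 4.56, 282 and 39.6 CPM. The chi-square of its counts per degree of freedom was 3.64 to 30.2 against the 7 hyperoxia libraries, lowest for hyperoxia vehicle replicate 2. Against the 7 normoxia libraries it was 29.6 to 59.2. These are values of 1 library and were not tested. No group had 4 or more libraries, so the gap of a single library to its group was not tested.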

How the results depend on the processing

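No paired analysis was possible because the labels give the libraries no replicate numbers. Over the 10 genes and 9 comparisons, 1423 of the recomputed fold changes kept their direction and their side of the threshold, 41 lost the threshold, 16 gained it and 40 changed sign; the cause was not tested. A fit of all 14 libraries with treatment as a covariate estimates an oxygen effect shared by all treatments, not that of each. This fit is counted above under each oxygen comparison. The shared effect was 0.0781 for TRIB3 and 0.55 for CHAC1, where the values with vehicle were negative. For DDIT3 it was 0.24, where the value with no vehicle was negative. With vehicle and no vehicle pooled, the interaction was 0.22 for DDIT3 and 0.0647 for HSPA5. DESeq2 gave -0.0141 and RLE size factors -0.0149 for ATF3 in vehicle against no vehicle in hyperoxia.

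Among the 10 genes, fits of 14 libraries called 5 for hyperoxia with ATRA, 1 for ATRA in hyperoxia and 0 for the interaction. The calls lost were TRIB3, ASNS and XBP1 for hyperoxia with ATRA, PPP1R15A for ATRA in hyperoxia and TRIB3 for the interaction. The groups compared alone called 1 of 10 for hyperoxia with no vehicle. For ATRA in hyperoxia, DESeq2 and the pooled controls each called 1. For the interaction, DESeq2 called 2 and gave no adjusted p for ATF3, DDIT3, ASNS, CHAC1 and XBP1. With no filter 3 were called, and with the pooled controls 0. Leaving out 1 library at a time changed the counts for ATRA in hyperoxia, the interaction, vehicle in hyperoxia and vehicle by oxygen. Several of those fits leave 1 library in a group, so their counts are not given for the 10 genes. Counts over all genes follow for most of these settings, and none of the counts here is read as an excess.

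Over all genes, hyperoxia with vehicle called 2616, against 4665 with the groups compared alone, 1420 with 14 libraries, 4635 with treatment as a covariate and 1386 to 3175 leaving out 1 library. Hyperoxia with ATRA called 3391, against 1975 with 14 libraries. The 4635 genes of the covariate fit are calls of the oxygen effect shared by all treatments. Hyperoxia with no vehicle called 2324, against 58, 4635 with the covariate, and 969 to 7364. ATRA in normoxia called 187, against 286 by DESeq2, 300 with no filter, 70 with 14 libraries and 56 to 267. ATRA in hyperoxia called 331, against 522 with no filter, 116 with 14 libraries, 182 pooled and 83 to 449. The interaction called 21, against 96 by DESeq2, 91 with no filter, 4 with 14 libraries, 5 pooled and 4 to 28. Vehicle in hyperoxia called 1, against 10 by DESeq2, 89 with no filter, 0 with the groups alone and 1 to 5630. Vehicle in normoxia called 0, against 1 by DESeq2 and 3 with no filter. Vehicle by oxygen called 1, against 2 by DESeq2, 25 with no filter, 0 with the groups alone and 0 to 3759.

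Leaving out 1 library turned the sign of these uncalled values, which ranged as follows. In hyperoxia with vehicle CHAC1 lay at -0.67 to 0.0483, and with no vehicle DDIT3 at -0.99 to 0.14 and TRIB3 at -0.48 to 0.45. For ATRA in normoxia DDIT3 lay at -0.40 to 0.0489, CHAC1 at -0.29 to 0.57 and XBP1 at -0.47 to 0.32. For ATRA in hyperoxia TRIB3 lay at -0.14 to 0.15 and XBP1 at -0.028 to 0.39. In the interaction ATF3 lay at -0.38 to 0.42, HSPA5 at -0.0868 to 0.0252 and XBP1 at -0.16 to 0.63. For vehicle in hyperoxia ATF3 lay at -0.30 to 0.41, TRIB3 at -0.79 to 0.17 and ASNS at -0.95 to 0.38. For vehicle in normoxia ATF3 lay at -0.59 to 0.36, ATF4 at -0.0628 to 0.0832, PPP1R15A at -0.28 to 0.23, ASNS at -0.18 to 0.26, DDIT4 at -0.14 to 0.22 and HSPA5 at -0.31 to 0.0214. For vehicle by oxygen ATF3 lay at -0.34 to 0.61, ATF4 at -0.0104 to 0.14 and ASNS at -0.97 to 0.36.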

Other observations

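In the library that the labels put in no group, the other 7 genes measured 33.0 CPM for DDIT3, 77.3 CPM for TRIB3, 33.9 CPM for ASNS, 8.59 CPM for CHAC1, 38.1 CPM for DDIT4, 265 CPM for HSPA5 and 22.5 CPM for XBP1. ASNS, DDIT4, HSPA5 and XBP1 lay within the range of the 7 hyperoxia libraries and below that of the 7 normoxia libraries.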
